A study of Drosophila melanogaster with 3 samples.

Results

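In Drosophila melanogaster, 592 of the 6215 Prospero-GFP peaks in the authors' optimal set (9.53%) had summits between genes and far from protein-coding starts. These distal intergenic summits lay outside every protein-coding and non-coding RNA (ncRNA) gene of the Ensembl annotation, more than 500 bp from any transcript start of those genes and more than 5 kb from the nearest start of a protein-coding gene. No distance from the 3′ end of a gene was required, so some lay in short gaps, such as the 0.578 kb between PAN3 and Cht7. The summit is the single base at which the authors' caller placed the top of a peak. Within the optimal set, position in the annotation alone chose the summits, without regard to strength, recurrence or sequence. The optimal set itself came from a threshold on reproducibility between these same replicates, which all its peaks had passed. Of the other summits, 672 were intergenic but within 5 kb of a protein-coding start, 1058 were intronic and beyond 5 kb of a start, 1558 were intronic and nearer, 2071 were within 500 bp of a start and 264 were in exons.

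The data came from chromatin immunoprecipitation with sequencing in whole embryos aged 2 to 18 h, both sexes pooled. All embryos were of the pros-GFP strain, a transgenic line that stably expresses Prospero with GFP fused to its C terminus, and the descriptions name an anti-GFP antibody while the antibody label reads pros. There were 3 biological replicates of this 1 group, each with its own list of 30000 peaks, and no second genotype, stage or condition. A whole embryo mixes tissues, so a peak cannot be assigned to a cell type. No read counts were in the lists, so the depth of each replicate is unknown, and peaks are compared by their rank within a list, where rank 1 has the highest signal.

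Prospero is a homeodomain transcription factor that a dividing neuroblast, a stem cell of the nervous system, hands to the daughter cell whose progeny become neurons or glia. There it enters the nucleus, where it acts on genes of neural stem cell fate, the cell cycle and neuronal differentiation. In compact insect genomes many enhancers of developmental regulators lie in introns or between genes, some of them many kilobases from the promoter they act on, and an enhancer need not act on the nearest gene. A binding site between genes therefore has flanking genes but no assigned target, and the genes named below are neighbours by position only.

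The windows below show what lay under strong distal intergenic summits, 100 bp to either side, read from the plus strand of the RefSeq copy of the dm6 assembly. The first 4 come from arms 3L and 3R and are the strongest there that hold the core recognised by the Prospero homeodomain, AAGACG or its reverse complement CGTCTT, which is in capitals. They lie at chr3L:724838-725038 between CG13896 and hng3, at chr3R:14050722-14050922 between CG9922 and foxo, at chr3L:15311805-15312005 between CG7255 and Toll-6, and at chr3L:6812908-6813108 between vvl and Prat2.
CG13896-hng3: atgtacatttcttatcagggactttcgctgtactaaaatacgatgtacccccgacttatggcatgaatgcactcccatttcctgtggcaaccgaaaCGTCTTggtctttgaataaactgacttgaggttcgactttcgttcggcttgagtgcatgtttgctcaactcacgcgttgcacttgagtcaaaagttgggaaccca
CG9922-foxo: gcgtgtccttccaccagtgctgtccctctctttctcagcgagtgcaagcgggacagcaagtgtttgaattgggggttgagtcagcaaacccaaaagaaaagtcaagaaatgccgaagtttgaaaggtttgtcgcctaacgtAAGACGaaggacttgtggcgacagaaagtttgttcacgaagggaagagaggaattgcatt
CG7255-Toll-6: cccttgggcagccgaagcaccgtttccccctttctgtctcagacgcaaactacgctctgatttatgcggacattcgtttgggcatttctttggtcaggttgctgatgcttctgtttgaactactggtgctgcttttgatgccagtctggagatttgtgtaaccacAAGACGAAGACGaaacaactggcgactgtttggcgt
vvl-Prat2: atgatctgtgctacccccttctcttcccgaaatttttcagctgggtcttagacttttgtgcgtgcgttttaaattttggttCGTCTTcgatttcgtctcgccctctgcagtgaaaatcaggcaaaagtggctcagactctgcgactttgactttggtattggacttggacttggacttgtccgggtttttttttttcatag
The core began 4 bp to the left of the summit in the first window, 41 bp to its right in the second and 19 bp to its left in the fourth. In the window beside Toll-6 a pair of cores stood in tandem, beginning 65 and 71 bp to the right of the summit.

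A further pair of windows carry a different word, CACCCC or its reverse complement GGGGTG in capitals, the 6-base word with the smallest p in a comparison of distal intergenic summits with their flanks. They lie at chr2L:4346822-4347022 between Atet and CG15429, the strongest distal intergenic summit on 2L, and at chr2L:21846830-21847030 between tsh and CG11629. Neither window has the Prospero core.
Atet-CG15429: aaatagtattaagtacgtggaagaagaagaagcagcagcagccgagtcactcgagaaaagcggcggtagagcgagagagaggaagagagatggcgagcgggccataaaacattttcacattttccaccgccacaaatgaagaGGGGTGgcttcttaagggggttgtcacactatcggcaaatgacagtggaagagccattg
tsh-CG11629: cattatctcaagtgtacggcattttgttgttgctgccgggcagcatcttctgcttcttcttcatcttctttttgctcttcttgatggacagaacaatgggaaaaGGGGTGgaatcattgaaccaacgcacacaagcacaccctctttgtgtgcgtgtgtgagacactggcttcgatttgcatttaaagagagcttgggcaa
The word began 42 bp to the right of the summit beside Atet and 4 bp to the right of the summit beside tsh.

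The strongest distal intergenic summits were the strongest peaks of the genome. At 13566912 on 2R, between CG13334 and CG42807, the summit had rank 1 in the optimal set and rank 1 in each of the 3 replicate lists, with signals of 7246, 8424 and 9070 in replicates 1, 2 and 3. The next, at 13564828 on 2R in the same interval, had rank 2 in all 3 lists, with signals of 6918, 6013 and 8673. The signal is the authors' own value per peak, on a scale that is not stated, so it orders peaks within a list only. That interval of 9.83 kb held 5 distal intergenic summits in a single peak region, and the other 3 had ranks 20, 27 and 38 in the optimal set. It also held 6 summits of the optimal set that were not distal intergenic, so the group was not confined to this class. The summit of rank 27 was matched in 2 replicates: its ranks were 220 in replicate 1 and 191 in replicate 3, and replicate 2 had no summit within 150 bp of it.

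The third strongest distal intergenic summit stood alone in its interval. At 4346922 on 2L, between CG15429 and Atet, which encodes an ABC transporter, it had rank 10 in the optimal set and ranks of 9, 11 and 10 in replicates 1, 2 and 3, with signals of 2216, 2559 and 2923. It was 6.05 kb upstream of the start of CG15429. A summit at 3395581 on 3L, 17.3 kb downstream of the start of Ids in the interval it shares with sty (sprouty, an antagonist of receptor tyrosine kinase signalling), had ranks of 56, 47 and 56. The replicates thus placed both within a narrow span of ranks.

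Others of the strongest 15 moved more between replicates. The summit at 18272795 on 3L, between CheA75a and CG5103, had ranks of 65, 85 and 60 in replicates 1, 2 and 3. The summit at 16744505 on 3L, between CG9701 and CG42852, had ranks of 90, 90 and 59. The summit at 15492037 on 2L had a mean replicate rank of 82.0 ± 19.0 (SD, n = 3) and lay 7.09 kb upstream of lace, which encodes a subunit of serine palmitoyltransferase, with Tim17b2 on the other side. Each of them was matched in all 3 replicates.

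A pair of the strongest 15 shared an interval of 11.7 kb on 2R between RYBP, a protein that joins Polycomb repressor complexes, and Ppa, an F-box protein. The summit at 22678351 had ranks of 88, 84 and 122 and the summit at 22682191 had ranks of 143, 176 and 145 in replicates 1, 2 and 3. All 5 distal intergenic summits of that interval were matched in all 3 replicates. The remaining 3 of the 15 lay at 13579954 on 2R between CG42808 and CG6191 (ranks 126, 168 and 76), at 3090890 on 3L between PAN3 and Cht7 (ranks 114, 195 and 104) and at 21846930 on 2L beside tsh (ranks 170, 111 and 162). tsh encodes Teashirt, a zinc-finger factor of trunk segment identity.

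**Figure D1:**
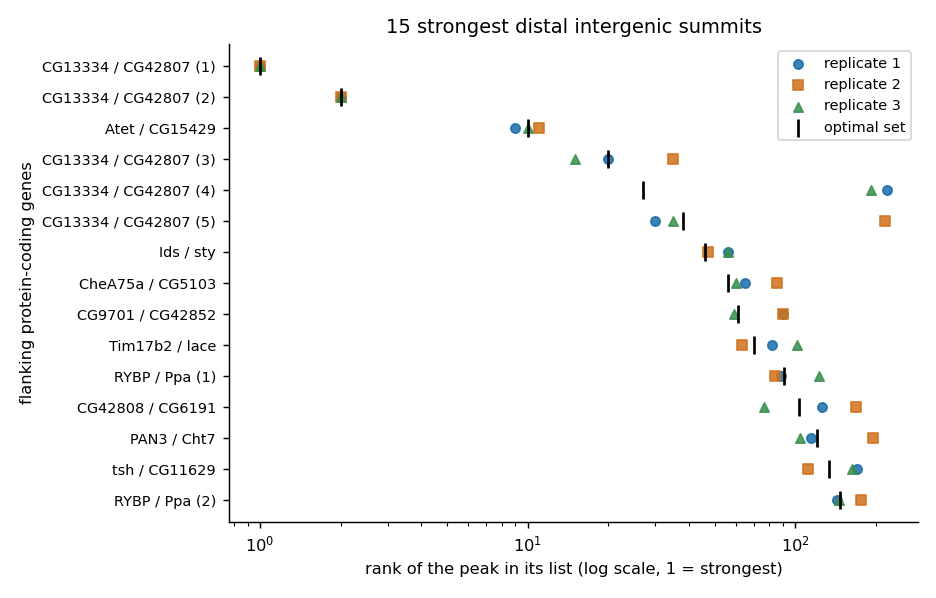
Rank of each of the 15 strongest distal intergenic summits (rows, named by the protein-coding genes on either side) in the optimal set (black bars) and in the 3 replicate lists (coloured symbols), on a log axis where 1 is the strongest peak. The top pair have ranks 1 and 2 in every list, and the summit of rank 27 between CG13334 and CG42807 has no symbol for replicate 2.

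The summit between PAN3 and Cht7 was 1 of 8 distal intergenic summits within 500 bp of the start of a small RNA gene, a class the choice of summits did not count as genes. It lay at snRNA:U5:63BC. The second strongest of the 8, at 19727162 on 2R between CG8517 and Or56a, lay at a snoRNA gene and a glutamate tRNA gene, with ranks of 203, 272 and 165 in replicates 1, 2 and 3. Of the 8, 3 were near tRNA genes alone, 2 near snRNA genes, 2 near snoRNA genes and 1 near both a snoRNA and a tRNA gene. The other 584 had no such gene within that distance.

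As a class the distal intergenic summits were no stronger than the rest. Their signals in the optimal set ran from 252 to 24613 with a median of 380, against a median of 406 for nearer intergenic summits and 416 for promoter summits. Of the 592, 46 (7.77%, exact Clopper-Pearson 95% interval 5.74% to 10.2%, counting error only) were among the strongest 10% of the optimal set, against 10.2% of all other summits. With the optimal set cut by rank into 10 equal parts, the distal intergenic share was between 6.91% and 7.56% in the strongest 4 and between 9.82% and 11.9% in the other 6.

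The replicate lists, which were called separately, gave the same order. Among the strongest 1000 peaks, 8.20%, 7.50% and 7.0% had distal intergenic summits in replicates 1, 2 and 3, a mean of 7.57% ± 0.603 (SD, n = 3). From there to rank 3000 the mean share was 8.77% ± 0.752, from there to rank 6215 it was 10.8% ± 0.523, and from there to rank 30000 it was 12.2% ± 0.138. The share in the weakest class was above that in the strongest class in all 3 replicates, with no overlap between the classes.

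**Figure D2:**
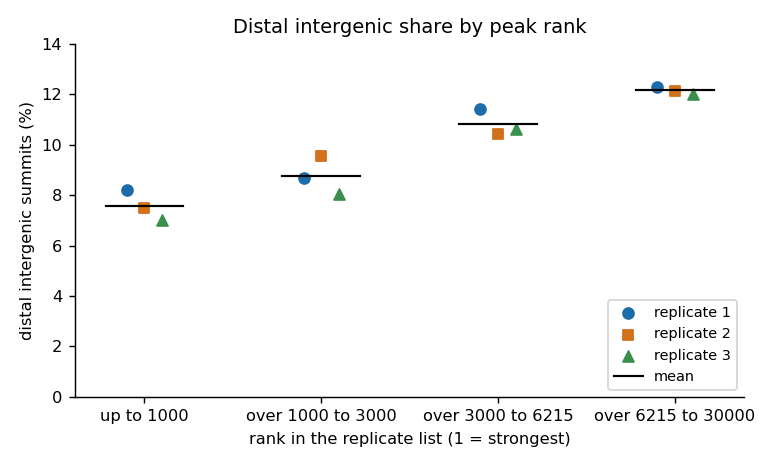
Share of peaks with a distal intergenic summit (vertical axis, percent) in 4 classes of peak rank (horizontal axis) in each replicate list, with the mean of the 3 replicates as a line. The means run from 7.57% among the strongest 1000 peaks to 12.2% below rank 6215.

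The replicate peaks covering each summit gave a similar picture, in a test that 3 replicates cannot pass. On a scale where 100 is the strongest of the 6215 top peaks in a replicate and 0 stands for none, the median percentile of distal intergenic summits was 48.6, 52.0 and 48.1 in replicates 1, 2 and 3, against 60.1, 53.8 and 54.5 for nearer intergenic summits. The mean difference, distal minus nearer, was -6.58 ± 4.86 percentile points (SD, n = 3; lower in 3 of 3 replicates, exact two-sided sign-flip permutation p = 0.25). The smallest p that 3 replicates allow in this test is 0.25, so it cannot pass a threshold of 0.05. The difference was -4.12 without replicate 1, and -1.36 when percentiles ran over all 30000 peaks of a list. Against distal intronic summits the difference was -6.38 ± 3.403, and against promoter summits -6.24 ± 6.48, where replicate 2 differed by only -0.893.

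Recurrence was close to that of other summits. A distal intergenic summit was matched within 150 bp among the strongest 6215 peaks of replicates 1, 2 and 3 in 83.8%, 83.4% and 83.6% of cases, a mean of 83.6% ± 0.169 (SD, n = 3), against 84.1% ± 1.75 for all other summits. The difference of -0.468 ± 1.68 percentage points was within the spread between replicates (exact two-sided sign-flip permutation p = 0.75). Of the 592, 371 (62.7%, exact 95% interval 58.6% to 66.6%) were matched in all 3 replicates, against 63.6% of all other summits and 63.5% of the whole optimal set. Another 154 were matched in 2 replicates, 64 in 1 and 3 in none. The optimal set was derived from these same replicates, so matches to them are not an independent test of any single peak.

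The share matched also fell along the ranks, as the definition in part requires, since a match had to be among the strongest 6215 peaks of a replicate. With the distal intergenic summits cut by rank into 5 equal parts, from the strongest to the weakest, 94.96%, 89.9%, 72.0%, 44.9% and 11.02% were matched in all 3 replicates. Among all 30000 peaks of each list, 93.8% of the whole class were. The 3 that were matched in none were near the end of the optimal set. At 8811546 on 2L, between CG42710 and SoxN (SoxNeuro, a SoxB factor of the neuroectoderm), the summit had rank 5977 in the optimal set and ranks of 6893, 6673 and 6270 in replicates 1, 2 and 3. At 5060751 on 3R, between plh and corto, it had rank 6027 and replicate ranks of 7850, 7006 and 6495. The third, at 28561728 on 3R between mIF2 and fkh, had rank 6205 and replicate ranks of 22119, 6551 and 9053. So each was present in all 3 full lists of 30000, and 555 of the 592 were. The least recurrent was at 19219495 on 2L beside drl, with rank 3666 in the optimal set, rank 4154 in replicate 1 and no summit within 150 bp in replicates 2 and 3.

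Distances to the nearest protein-coding start ran from 5.01 to 71.0 kb, with a median of 10.1 kb and quartiles of 6.93 and 15.7 kb. There were 303 summits (51.2%) beyond 10 kb, 95 (16.0%) beyond 20 kb and 30 (5.07%) beyond 30 kb. The nearest start was downstream of 321 of the summits in the direction of its gene, so that these lay upstream of the gene (54.2%), and the other 271 lay past its 3′ end. For 579 of the 592 the gene with the nearest start was also one of the flanking genes.

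The 5 farthest summits lay beside 2 regulators of development. Of these, 3 were in the interval of 70.9 kb on 3R between Cyp12e1 and hth (homothorax, a homeodomain partner of Hox proteins), at 10505747, 10502529 and 10490871, which was 71.0, 67.7 and 56.1 kb from the start of Cyp12e1. Their ranks in the optimal set were 2594, 4598 and 2808. The other pair were in the interval between vvl (ventral veins lacking, a POU homeodomain factor of neurons and trachea) and Prat2 (an enzyme of purine synthesis), at 6845796 and 6840902 on 3L, 55.6 and 50.7 kb downstream of the vvl start. The first had ranks of 574, 595 and 652 in replicates 1, 2 and 3, and the second ranks of 3581, 1968 and 6428.

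Summits next to the 5 kb limit had overlapping ranks in the optimal set on either side of it. The 3 just inside lay 5011 bp from SmD1 (rank 5555), 5016 bp from CG10479 (rank 2645) and 5041 bp from RabGGTa (rank 1599). The 3 just outside lay 4991 bp from CG15468 (rank 3864), 4974 bp from CG43107 (rank 642) and 4966 bp from Fie (rank 2188). For the summit near CG15468, replicate 2 had no summit within 150 bp.

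Per length of sequence, distal intergenic DNA held fewer summits than DNA near starts. The dm6 arms hold 24.0 Mb in which a distal intergenic summit could lie, and the density there was 24.6 per Mb, against 52.3 per Mb of nearer intergenic sequence and 118 per Mb of promoter sequence. The arms differed. Density was 30.003 per Mb on 2L (126 summits), 30.2 on 3L (196), 29.9 on 3R (136) and 34.2 on chromosome 4 (6), but 14.4 on 2R (75) and 15.4 on X (53). In nearer intergenic sequence X was also low, at 27.6 per Mb, but 2R was not, at 59.2, against 52.3 over all arms. No test was made of these densities, since neighbouring summits share intervals.

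Annotated transposable elements fill 13.1% of that sequence but held 1 of the 592 summits, in a G5A element on 2R at rank 2885, against 0.161% of the whole optimal set. With elements left out of the length, 2R had 17.5 and X 17.5 summits per Mb, 2L, 3L and 3R had 34.4, 34.5 and 32.3, and chromosome 4, where 6 summits remain over 0.0627 Mb, had 95.6. How reads that map to repeats were treated is not stated in the labels or files, and its part in this count was not tested.

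The summits gathered in a small set of intervals, an interval being the stretch between neighbouring protein-coding gene bodies. Of 1427 intervals with room for a distal intergenic summit, 243 (17.0%) held one. Of these, 119 held 1 summit and 124 held several, and the 124 together held 473 of the 592 (79.9%). There were 38 intervals with 5 or more, with 255 summits in all. In 21 of the 124 all the summits belonged to a single overlapping peak region. Over the whole class, 190 summits shared a peak region with another distal intergenic summit. There were 176 within 500 bp of another and 219 (37.0%) within 1 kb, and the median gap to the nearest other was 2.24 kb. Longer intervals have more room: those with several summits had a median of 19.0 kb of qualifying sequence, those with a single summit 11.1 kb and those with none 5.47 kb.

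Intervals were also sorted by how the flanking genes are arranged, with no test. Between genes transcribed away from each other 24.1% of intervals held a distal intergenic summit, at 30.7 per Mb of qualifying sequence, against 17.1% and 24.6 per Mb between genes in tandem and 13.5% and 27.7 per Mb between genes transcribed towards each other. The 11 stretches at the ends of arms held 0 summits in 1.86 Mb.

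The interval between vvl and Prat2 on 3L, from 6794942 to 6911998, held 12 distal intergenic summits over 78.8 kb. Of these 12, 9 were matched in all 3 replicates and 4 had the Prospero core. The strongest, at 6886159, 27.8 kb downstream of the Prat2 start, had ranks of 270, 663 and 269 in replicates 1, 2 and 3, and the summit next to it, at 6885432, had ranks of 699, 837 and 751. The summit whose window is printed above, at 6813008, had ranks of 622, 650 and 604 and lay 22.9 kb downstream of the vvl start. The strong summits of this interval thus stood towards both ends and in its middle, not in a single cluster.

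The interval between Su(z)2, a Polycomb group gene, and CG13323 on 2R also held 12, in 36.8 kb. Its strongest, at 13028526, had ranks of 336, 408 and 637 in replicates 1, 2 and 3, and its near neighbour at 13028727 had ranks of 818, 653 and 1608. Of the 12, 7 were matched in all 3 replicates and 0 had the core. The neighbouring Polycomb group gene Psc had its own group: the interval between CG13321 and Psc held 5 summits in 10.3 kb, the strongest of rank 235, and is named here after its values were seen.

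A pair of the fullest intervals lay beside genes of Toll family receptors, although 18w and Toll-7, of the same family, had room for a distal intergenic summit and flanked none. Between Tollo (Toll-8) and Best4 on 3L there were 10 in 56.1 kb, 6 of them matched in all 3 replicates and 3 with the core. The strongest, at 15262430, had ranks of 927, 759 and 1174 in replicates 1, 2 and 3. Between CG7255 and Toll-6 there were 9 in 25.5 kb, 8 of them matched in all 3 replicates. The strongest of these, at 15311905, is the window with the pair of tandem cores, and its ranks were 394, 315 and 941. Toll-6 is a receptor of neurotrophin-like ligands in the nervous system, and a further 4 summits lay on its other side, the strongest at 15354951 with ranks of 495, 564 and 360.

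A gene pair that drives cell death enclosed another group. Between grim and rpr (reaper), whose products set off apoptosis by blocking an inhibitor of caspases, 9 summits lay in an interval of 93.1 kb on 3L. Of these, 7 were matched in all 3 replicates and 0 had the core. The strongest, at 18350704, was 46.3 kb from the start of grim and had ranks of 472, 773 and 570 in replicates 1, 2 and 3. The other 8 had ranks between 2022 and 4666 in the optimal set.

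The remaining 5 of the 10 fullest intervals lay beside genes of several other kinds. Between plh and corto on 3R there were 10 summits in 66.7 kb, of which 3 were matched in all 3 replicates, and the strongest had ranks of 3193, 1117 and 2424 in replicates 1, 2 and 3. Between CG15283 and noc (no ocelli, a zinc-finger factor) on 2L there were 9 in 39.9 kb. The strongest had ranks of 1271 and 1104 in replicates 1 and 3 and no summit within 150 bp in replicate 2.

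Between CG45544 and CG14506 on 3R there were 8 in 36.3 kb, led by a summit at 29287551 with ranks of 189, 250 and 180 in replicates 1, 2 and 3. The interval between CG44362 and CG7560 on 3L held 8 in 27.3 kb, and 7 of them were matched in all 3 replicates. Its leading summit, at 11406680, had ranks of 464, 713 and 938 and 2 cores in its window. The last, between ND-B14.7 and shg (shotgun, the fly E-cadherin) on 2R, held 8 in 23.6 kb with leading ranks of 1572, 1632 and 2199.

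**Figure D3:**
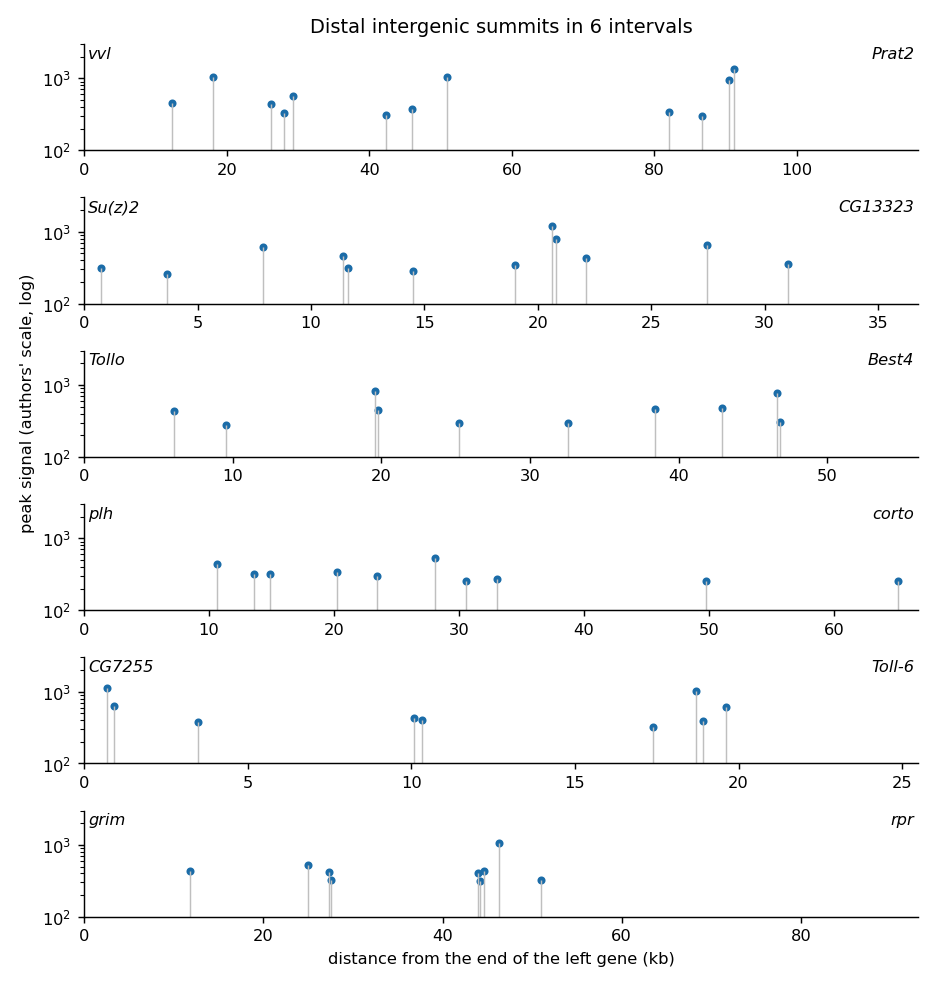
Positions of the distal intergenic summits in the 6 intervals with the most of them, as distance from the end of the left gene in kb, against the signal in the optimal set on the authors' scale (log axis). Grey lines only mark positions. The vvl to Prat2 interval has high points on both sides, and in the interval between grim and rpr the highest point stands at 46.3 kb from grim.

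Among the intervals with 7 summits, named after their values were seen, was that between tsh and CG11629, where all 7 were matched in all 3 replicates and the strongest had rank 134. Another lay between BobA and Tom, both of the Bearded family, which limits the uptake of Notch ligands. Its 7 summits formed 3 pairs about 200 bp apart and a single summit of rank 777, all inside 6.39 kb. Such spacing was not particular to this interval. The pairs beside fng, tup, hkb and zfh1 spanned 0.2, 0.201, 0.201 and 0.207 kb, each within 1 peak region, so they need not be separate sites. On X, 7 summits lay between B-H2 and B-H1, the paired BarH homeodomain genes, 2 of them with the core and the strongest at rank 2970.

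Of all 13945 protein-coding genes, 439 (3.15%) flanked a distal intergenic summit, but only 2333 were next to sequence where one could lie, and of those the share was 18.8%. Each list of genes was read against that second share. Of 19 neuroblast transcription factor genes next to such sequence, 15 (78.9%) flanked a summit, and of 32 segmentation and Hox genes 24 did (75%). The neuronal transcription factor genes followed with 14 of 26 (53.8%). Per length, the intervals beside these 3 lists held 98.1, 66.7 and 99.8 summits per Mb of qualifying sequence, against 24.6 over all. High densities were not limited to them. The Notch pathway and Bearded family list had 148 per Mb, from 13 summits, of which 7 lay between BobA and Tom. The tracheal and epidermal, gut, mesoderm and guidance lists had 82.2, 75.7, 71.0 and 59.4. The cell cycle list had 83.7, from only 3 summits in 0.0358 Mb. The chemoreceptor list had 10.4 and the ribosomal protein list 3.62, from 1 summit each. The glial list had 0, but in only 0.0341 Mb, too little sequence to read as a lack. Neighbouring genes of a list can flank the same summits, as Dfd and Scr, odd and sob, and Tom and BobA did, so counts of genes are not counts of separate intervals. The lists overlap and were put together with earlier results of these data known, so these shares are descriptions and carry no test.

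Among the neuroblast factors, oc (orthodenticle, a homeodomain factor of the head) had 5 flanking summits, the strongest at 8660572 on X with ranks of 780, 760 and 586 in replicates 1, 2 and 3. The forkhead gene slp2 had 4, the strongest with ranks of 1364, 1250 and 985, and the homeodomain gene ems had 2, the strongest with ranks of 1063, 1571 and 1445. SoxN, needed for early neural fate, had 7, led by 8809998 on 2L with ranks of 1293, 1479 and 1384. The related gene D (Dichaete) had 6. The temporal factors hb, cas, nub and pdm2 flanked 1, 1, 2 and 1 summits. No distal intergenic summit lay beside esg, btd, svp or ham, although each had room for one. Counts for genes here and on the lists below cover distal intergenic summits only, not other classes of summit.

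The neuronal factors included the strongest summits of any list after tsh. ap (apterous, a LIM homeodomain factor) had 4, the strongest at 5736632 on 2R, 9.11 kb upstream, with ranks of 184, 273 and 276 in replicates 1, 2 and 3. Hmx, a homeodomain factor, had 4, led by a summit with ranks of 335, 437 and 249. zfh1, a zinc-finger homeodomain factor of motor neurons, had 2, the strongest 6.94 kb upstream with ranks of 385, 382 and 336. vvl, counted here too, flanked 13. Those without a distal intergenic summit included acj6, dac, fru and sim.

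In the segmentation and Hox list tsh came first, with 8 summits, and ptc, the Hedgehog receptor, had 1, 7.41 kb upstream, with the core and ranks of 387, 445 and 414 in replicates 1, 2 and 3. en (engrailed) had 2, the strongest with ranks of 565, 924 and 805, and the T-box gene mid (midline) had 3, led by ranks of 797, 895 and 890. Antp had 7 flanking summits and hth 7, while Ubx, Abd-B, ftz, inv and hh had 0.

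On the other lists with 10 or more such genes the shares were smaller. Of 10 Notch pathway and Bearded family genes 4 flanked a summit (40%): Tom, BobA, fng, a glycosyltransferase that modifies Notch, and the ligand gene Delta. Delta had 4 summits, 3 of them with the core. Of 13 tracheal and epidermal genes 6 did (46.2%), led by vvl, dpp (the BMP ligand) and trh, and of 11 mesoderm and muscle genes 5 did (45.5%), led by ap, Doc1 and Doc2, which share a summit of rank 1093. For gut, blood and fat body it was 5 of 14 (35.7%), led by fkh with 5 summits, the strongest having ranks of 654, 616 and 897, then hkb, caup and mirr.

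Axon guidance and adhesion genes flanked summits in 6 of 21 cases (28.6%), which was nearer to the background of 18.8%. They were Toll-6, with 13 summits, caps and drl, with 7 each, robo3, Ten-m and trn. Those with 0 included the Netrin genes, Dscam1, Fas3, robo2, 18w and Toll-7. The other 4 lists had 5 or fewer genes with room for a summit. Of these, 2 of 3 cell cycle genes (rux and Myc), 1 of 3 ribosomal protein genes (RpL13), 1 of 5 chemoreceptor genes (Or67d) and 0 of 3 glial genes flanked one.

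**Figure D4:**
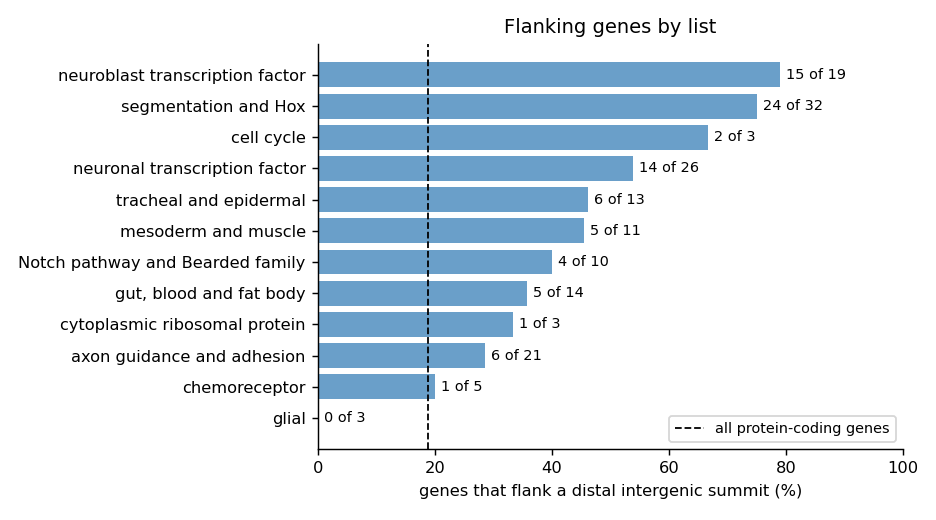
Share of the genes on each list that flank a distal intergenic summit (horizontal axis, percent), out of the list's genes that lie next to sequence where such a summit could be, with the counts beside each bar. The dashed line is the same share over all protein-coding genes, 18.8%, which 11 of the 12 lists exceed and the glial list (0 of 3) does not.

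The Prospero core was more frequent under distal intergenic summits than beside them. Of the 592 windows reaching 100 bp to either side of the summit, 61 (10.3%, exact 95% interval 7.97% to 13.0%) held AAGACG on either strand, against 4.56% of equal windows centred 500 bp away on either side, a ratio of 2.26 (exact McNemar test, Benjamini-Hochberg adjusted p = 0.00159 over 10 motifs). The share was 10.9% for nearer intergenic summits, 11.4% for all other summits and 11.3% for the whole optimal set. Of all 116792 windows of that width laid end to end over qualifying sequence, 6.08% hold the word. In the replicate lists the core was in 10.1% ± 0.331 of distal intergenic windows, against 11.3% ± 0.323 for other summits, a difference of -1.14 ± 0.0397 percentage points (SD, n = 3; lower in 3 of 3, exact two-sided sign-flip permutation p = 0.25).

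Cores were not gathered under the strongest summits alone. Over the same 5 parts by rank the share was 13.4%, 7.56%, 14.4%, 8.47% and 7.63%. Core matches per kb were highest in the 50 bp right of the summit, at 0.811, and the 50 bp left of it, at 0.676. In all, 10 windows had 2 cores, among them the strongest summit of the genome on 2R and the windows beside Toll-6 and CG7560.

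Of the other 9 motifs searched on both strands, GAGAG, the site of GAGA factor, was in 29.2% of windows at distal intergenic summits, against 19.6% of flanks (ratio 1.49, exact McNemar adjusted p = 0.00198). Its share was 41.5% at all other summits, where flanks had 23.4%. TAATTA, a general homeodomain site that reads the same on both strands, was less frequent at the summit, at 6.42%, against 13.8% of flanks (ratio 0.466, exact McNemar adjusted p = 0.000553). The windows differed in base composition too: the median G and C content was 47.3% at the summits and 38.8% in the flanks. The 36 words of 6 bases made of A and T alone, TAATTA among them, were all less frequent at the summit, with a median ratio of 0.502, close to that of TAATTA. The part of base composition in the GAGAG ratio was not tested.

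The other 7 motifs did not pass the test. CAGCTG, the E-box of proneural factors, was in 9.46% of windows, against 5.997% of flanks (exact McNemar adjusted p = 0.0825). The rest were CAGGTA for Zelda (5.07% against 3.80%), GTGGGAA for Su(H) (3.04% against 2.96%), TGACAG for TALE homeodomain proteins (11.5% against 8.28%), AACCGG for Grainy head (6.42% against 4.22%), ATTTGCAT for POU proteins (2.70% against 3.38%) and GATAAG for GATA factors (8.61% against 9.80%), with adjusted p between 0.337 and 1 in the same test.

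All 2080 distinct words of 6 bases were then compared in the same way, a family added after the motif results were seen. At an adjusted p below 0.05, 123 words (5.91%) were more frequent at distal intergenic summits than in their flanks and 153 (7.36%) were less frequent. The Prospero core ranked 130 of the 2080 by p (exact McNemar adjusted p = 0.00508). By ratio it ranked 2 among the 640 words with as many G and C bases, whose median ratio was 1.11. The most significant of all words was CACCCC, in 152 windows (25.7%) against 5.997% of flanks, a ratio of 4.28 (exact McNemar adjusted p = 2.8e-17). Words with as many G and C bases had a median ratio of 1.66, and CACCCC ranked 2 among those 192, behind ACCCCG (13.3% against 2.62%, ratio 5.10), a word that overlaps it. All 8 of the words that were more frequent at the summit among the 20 most significant contained ACCC or its reverse complement, so they count overlapping stretches. The other 12 of the 20 were less frequent at the summit, and 11 of them were made of A and T alone.

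The word had been picked for its excess in these same distal intergenic windows, and the replicate peaks overlap the optimal set, so the values by class are a description. CACCCC was in 25.7% of distal intergenic windows, against 21.4% of nearer intergenic, 20.8% of distal intronic, 18.3% of nearer intronic and 12.4% of promoter windows, and 17.7% of the whole optimal set. The flanks of these classes lay between 5.05% and 6.43%, and 5.48% of windows laid end to end over qualifying sequence hold the word. In the replicate lists, which include peaks outside the optimal set, it was in 23.7% ± 0.792 of distal intergenic windows, against 11.6% ± 0.648 of promoter windows (SD, n = 3). The difference was 12.1 ± 0.773 percentage points, and against nearer intergenic windows it was 2.97 ± 0.743, both positive in 3 of 3 replicates.

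The word and the Prospero core were both in 12 of the 592 windows. Thus 19.7% of windows with the core also had CACCCC, against 26.4% of windows without the core, a difference that was not tested. Neither was in 391 (66.0%). The share with CACCCC varied little with peak strength: over the same 5 parts it was 27.7%, 26.9%, 24.6%, 22.9% and 26.3%. Matches were spread over about 150 bp on each side of the summit, with the highest bin, 1.96 per kb, between 100 and 50 bp to its left. Between 100 and 150 bp away there were 1.28 per kb on either side, against 0.338 and 0.372 in the outermost bins.

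**Figure D5:**
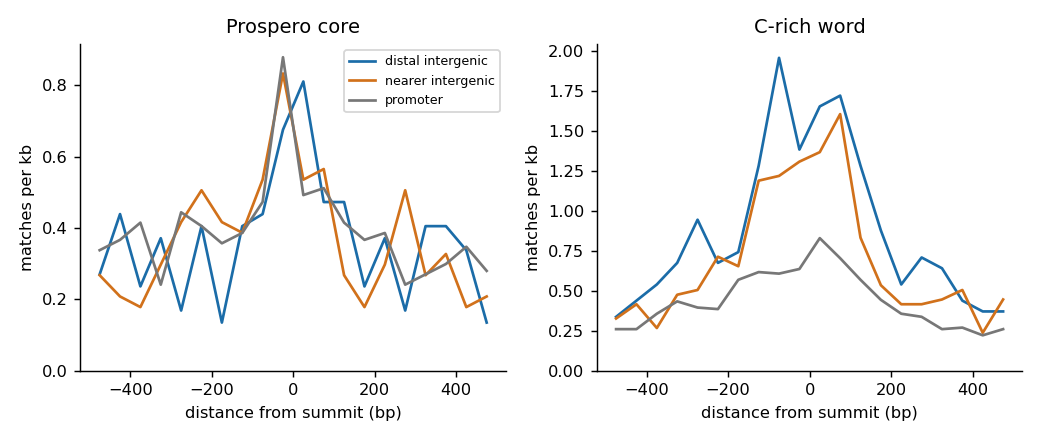
Matches per kb, on either strand, of the Prospero core AAGACG (left panel) and of CACCCC (right panel) by distance from the summit in bins of 50 bp, for distal intergenic, nearer intergenic and promoter summits. The core rises to similar heights in the 3 classes, and CACCCC reaches 1.96 per kb near distal intergenic summits, above both other classes.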

How the data were processed

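Peak lists of 3 biological replicates, of the pooled replicates and of the optimal set, on dm6, were used as deposited. Per the deposited file descriptions, each list came from alignments and a control, and the optimal set from a threshold on the irreproducible discovery rate. Aligner, peak caller and threshold are not stated in the labels or files used. The signal per peak is the value deposited by the authors, on an unstated scale, and served for ranking. The deposited −log10 q-value was 4.30 for all 6215 peaks of the optimal set and ordered nothing. Depth is unknown.

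Genes came from Ensembl release 115 (BDGP6), of the biotypes protein_coding and ncRNA, and sequence from RefSeq. Coordinates are 1-based. Summits were matched within 150 bp to the strongest 6215 peaks of each replicate. Replicate differences were tested by exact sign-flip permutation over the 3 replicates, and words by exact McNemar tests of summit windows against the left and the right flank, of which the larger p was kept, with Benjamini-Hochberg adjustment. Exact Clopper-Pearson intervals cover counting error only. Neighbouring summits are not independent, which neither these intervals nor the McNemar tests take into account. The labels do not say how replicate embryos were collected, so the spread between them may be technical. Python 3.11.15 with pandas 2.3.3 and scipy 1.17.1 was used, tested on simulated data.

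Summits, gene lists and words were chosen with earlier results of these data known. Named were the 15 strongest summits, the 10 fullest intervals, up to 4 flanking genes a list with the strongest summit, the 3 summits on each side of the 5 kb limit, the 5 farthest, those matched in no replicate, and others said to be named after their values were seen or listed as without a summit. The 12 lists held 326 distinct genes, of which 8 entries were matched through older names. Alternatives were other distance limits, annotations, peak sets, match widths, windows, flanks and interval limits, and each replicate left out.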

Additional observations from a re-analysis of the deposited data

How the results depend on the processing

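No paired analysis was possible because the samples form a single group, so no replicate number is shared across groups. Classes of summit were compared within each replicate. Of 81 alternative values, 58 were counted as unchanged. Shares and percentiles counted so within the interval or replicate spread of the reported value, and counts of summits or intervals within a fixed fold. Differences and the core ratio counted so if direction and side of the 0.05 threshold held. As the sign-flip p cannot fall below 0.25, those differences could only change direction, so the tally does not measure robustness. With a limit of 10 kb there were 303 summits, 86.1% of them in 74 intervals with several. In the stronger 50% of the optimal set there were 255, 91.8% matched in all 3 replicates, with a median percentile of 74.9 and 67.8% in 59 intervals with several. With 1 summit per peak region, 71.5% were in intervals with several and the median percentile was 43.2. With non-coding RNA genes also ending intervals it was 74.8%. Matched in all 3 replicates were 38.5% within 50 bp, 73.6% within 300 bp and 93.8% among all replicate peaks, where the median percentile was 89.5. Leaving out 1 replicate gave 70.8% to 71.6% matched in both others, as fewer matches are then required. The difference in recurrence from other summits turned to 0.130 within 50 bp (exact permutation p = 1), and ran from -1.22 to 0.439 over the lists with 1 replicate left out, positive without replicate 3. The percentile difference from nearer intergenic summits ran from -8.98 to -4.12 over those lists. The core was in 6.93% of windows reaching 50 bp to either side and 14.5% of those reaching 200 bp, where its ratio to flanks fell to 1.47 and missed the threshold (exact McNemar adjusted p = 0.110). With the RefSeq annotation 584 of the 592 summits stayed, and with small RNA genes also counted, an alternative added after seeing the data, there were 584.

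The main limits are the single group with 3 replicates, peak lists without read counts, and the absence of a control or other GFP precipitation from the values used. Flanking genes are not targets, and whole embryos do not separate cell types.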
